A study of Mus musculus with 26 samples.

Results

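Bhlhe40, Bhlhe41, Ciart, Usp2 and Wee1 are 5 genes that the circadian clock drives through E-boxes, short promoter elements bound by the clock's activators. They were taken by name from a table of read counts that held 36883 gene names, and all 5 passed the filter on low counts that left 16892 genes for testing. The counts came from the livers of 26 mice of the Eu-MYC strain, in which an enhancer of the immunoglobulin heavy chain locus drives a MYC transgene in B-lineage cells. Every mouse carried the transgene, and no group without it was analysed here. The groups were 8 females and 6 males kept in 12 hours of light and 12 hours of dark (12:12), and, under chronic jet lag (CJL) for 8 weeks, 8 females and 4 males. Each library is 1 numbered mouse, per the labels. Not given in the sources used here: how the light was shifted, how old the mice were and at which hour they were sampled. Levels are in CPM, a gene's count scaled to a common library size.

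In the mammalian clock, CLOCK or NPAS2 pairs with BMAL1 (the product of Arntl) and activates genes through E-boxes, while the PER and CRY proteins made in this way close the loop by inhibiting the pair. In the liver the same step drives output genes, so that their transcripts rise and fall over the day. Bhlhe40 and Bhlhe41 (also called DEC1 and DEC2) encode repressors that bind E-boxes themselves, and Ciart (CHRONO) encodes a repressor of CLOCK and BMAL1. Usp2 encodes a ubiquitin-specific protease, and Wee1 encodes the kinase that holds CDK1 inactive before mitosis.

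Promoter sequences, where available, were searched for the element that names these genes. RefSeq's table for GRCm38.p6, the same assembly as mm10, held a window of 300 bases, from 250 before to 50 after the start, for 3 of the 5 genes: Ciart, Bhlhe41 and Usp2. Bhlhe40 and Wee1 had no entry. Parts of those windows before the start of transcription are given 5′ to 3′ on the gene's strand, with the E-box letters CACGTG in capitals.
Ciart, chr3:95882258-95882478, minus strand: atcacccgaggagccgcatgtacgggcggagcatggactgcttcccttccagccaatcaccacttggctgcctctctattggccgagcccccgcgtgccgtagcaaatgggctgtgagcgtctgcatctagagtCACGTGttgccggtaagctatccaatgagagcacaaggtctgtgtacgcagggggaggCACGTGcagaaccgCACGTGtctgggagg
Bhlhe41, chr6:145865559-145865670, minus strand: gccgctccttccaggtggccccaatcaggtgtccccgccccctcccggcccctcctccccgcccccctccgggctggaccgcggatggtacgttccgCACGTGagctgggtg
Usp2, chr9:44084670-44084919, plus strand: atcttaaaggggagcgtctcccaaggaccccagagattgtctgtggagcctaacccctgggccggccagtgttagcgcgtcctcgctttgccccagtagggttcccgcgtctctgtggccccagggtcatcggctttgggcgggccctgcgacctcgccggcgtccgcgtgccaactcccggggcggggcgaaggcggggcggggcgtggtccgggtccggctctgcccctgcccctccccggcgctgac

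Ciart's window held 3 copies of CACGTG, starting 116, 58 and 44 bases before the start of transcription. Bhlhe41's held 1 copy, 153 bases before its start, and Usp2's held 0. These distances are from the starts in RefSeq's table, 95882228 for Ciart and 145865420 for Bhlhe41, which lie inside the wider GENCODE bounds of both genes, which end at 95882251 and 145865558. CACGTG reads the same on both strands. Of 32851 promoter windows of 300 bases in the table, 7.15% held it at least once and 29, or 0.0883%, held 3 or more copies. The related letters CACGTT or AACGTG, found in 4.68% of windows, and the D-box TTATGTAA or TTACATAA, found in 0.938%, were not in these 3 windows on either strand. The Usp2 start in the table, 44084920, also lies inside the gene, which begins at 44067021, so the window before its first annotated base was not searched. A match of letters is a description of the window and not a measured binding site.

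All 5 genes had lower medians under jet lag in both sexes, and the test called 3 of them lower. Over both sexes, Wee1, Usp2 and Ciart passed an adjusted p of 0.05 in edgeR's quasi-likelihood test, Bhlhe40 and Bhlhe41 did not, and all 5 fold changes were negative. Their median log2 fold change was -1.40, beside 0.02 over all genes tested. Of all genes tested, 0.781% were called in either direction and 0.337% were called lower. Because these are whole livers, fewer cells of a type and less RNA per cell cannot be told apart. The hour of sampling is not given, so a lower level over the day and a shifted daily rhythm cannot be told apart either. Of the marker lists for other cells, 0 genes were called for lighting, but all 7 tested neutrophil genes had positive fold changes, with a median of 1.40 over both sexes, 0.79 in females and 2.41 in males. The summed level of the neutrophil list ran from 1.57 to 195 CPM in 12:12 libraries and from 1.13 to 412 CPM in jet lag libraries. Its medians were close, at 4.90 and 4.64 CPM in 12:12 and jet lag females, and 2.94 and 2.98 CPM in males. In the 8 libraries with at least 8 CPM of the B cell transcript Cd79a it was 6.58 to 412 CPM, against 1.13 to 6.89 CPM in the rest. The part of these genes in the members' differences was not tested. In the plot of every library, on its log axis, Usp2, Wee1 and Bhlhe41 spread wider under jet lag in both sexes, and Ciart and Bhlhe40 in females only.

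**Figure D1:**
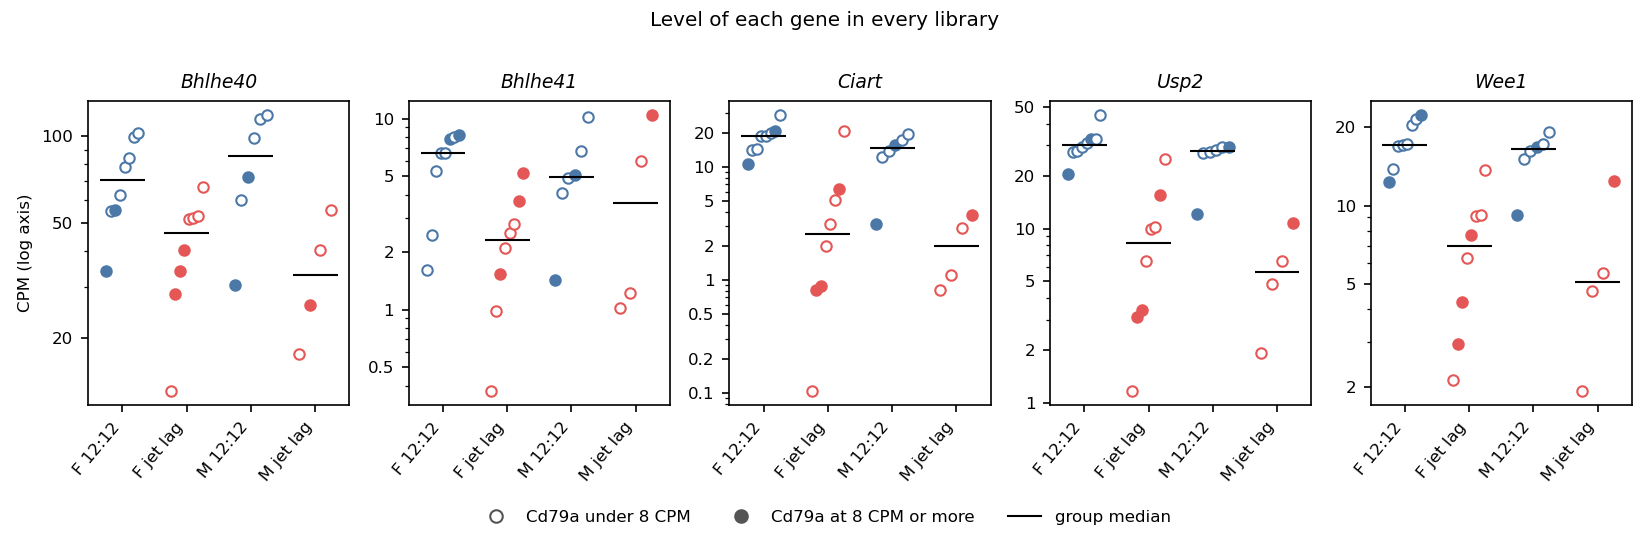
Each point is the level of a gene in 1 library, in CPM on a log axis, for females (F) and males (M) under 12:12 (blue) and jet lag (red) lighting. Filled points are the 8 libraries with at least 8 CPM of the B cell transcript Cd79a, and bars are group medians. Ciart ran from 10.5 to 28.9 CPM in females under 12:12 lighting and from 0.104 to 20.8 CPM in females under jet lag.

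Among the repressors, Bhlhe40 (chromosome 6, 108660629 to 108666925, plus strand in GRCm38) was the most abundant. In females under 12:12 lighting its lowest, median and highest levels were 34.1, 70.7 and 103 CPM, and in females under jet lag they were 13.1, 46.1 and 67.0 CPM. In males under 12:12 lighting they were 30.5, 85.7 and 119 CPM, and the 4 jet lag males, numbers 5 to 8, had 55.4, 40.3, 17.6 and 26 CPM. All 12 jet lag libraries lay below the 12:12 median of their sex, yet the groups overlapped in both sexes. The fold change over both sexes was -0.98 on the log2 scale (SE 0.26, edgeR adjusted p 0.0768), which misses the threshold. DESeq2 called it, with an adjusted p of 0.0103.

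Bhlhe41 (chromosome 6, 145858243 to 145865558, minus strand) is the paralog of Bhlhe40 and was the scarcest of the 5. In females its lowest, median and highest levels were 1.60, 6.59 and 8.24 CPM under 12:12 lighting, and 0.374, 2.30 and 5.18 CPM under jet lag. In males under 12:12 lighting they were 1.43, 4.97 and 10.2 CPM, against 6.02, 1.22, 1.02 and 10.5 CPM in jet lag males 5 to 8. All 8 jet lag females lay below the female 12:12 median, but only 2 of the 4 jet lag males lay below the male one. Jet lag male 8 held the highest Bhlhe41 level of the 26 libraries. The fold change over both sexes was -0.94 (SE 0.38, edgeR adjusted p 0.447).

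Ciart (chromosome 3, 95878503 to 95882251, minus strand) had the largest fold change of the 5, -2.21 on the log2 scale (SE 0.51, edgeR adjusted p 0.0347). In females its lowest, median and highest levels were 10.5, 18.6 and 28.9 CPM under 12:12 lighting and 0.104, 2.55 and 20.8 CPM under jet lag. The lowest of these rests on 5 counts and the highest jet lag level on 1019 counts. In males under 12:12 lighting the levels were 3.11, 14.7 and 19.5 CPM, and jet lag males 5 to 8 had 2.89, 1.10, 0.808 and 3.75 CPM. Of the jet lag libraries, 11 of 12 lay below the 12:12 median of their sex, the exception being jet lag female 8. The SD of log2(CPM + 0.5) was 1.62 in jet lag females and 0.43 in 12:12 females, but 0.82 in jet lag males and 0.91 in 12:12 males.

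The Ciart call was close to the threshold. It held in 10 of the 26 fits that each left out 1 library: those without 12:12 females 1, 2, 5, 6 or 7, jet lag females 3, 6 or 8, 12:12 male 3 or jet lag male 8. In the other fits the edgeR adjusted p lay between 0.0509 and 0.0747, the highest being without jet lag male 6, and the fold change stayed at or below -2.09. Without jet lag female 8 it was -2.81 with an adjusted p of 0.000795, and with no filter on low counts the adjusted p was 0.0687.

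Usp2 (chromosome 9, 44067021 to 44095627, plus strand) fell by 1.90 on the log2 scale under jet lag (SE 0.34, edgeR adjusted p 0.00518). In females its lowest, median and highest levels were 20.5, 30.2 and 45.2 CPM under 12:12 lighting and 1.16, 8.25 and 25.1 CPM under jet lag. In males under 12:12 lighting they were 12.2, 27.8 and 29.5 CPM, and jet lag males 5 to 8 had 6.55, 4.77, 1.94 and 10.8 CPM. Every jet lag library was below the 12:12 median of its sex. In males the 2 lighting groups did not overlap, which held for 0.622% of all genes tested in that direction, and in females they overlapped. Usp2 stayed past the threshold whichever of the 26 libraries was dropped, at adjusted p of 0.0140 or less.

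Wee1 (chromosome 7, 110122046 to 110143286, plus strand) fell by 1.40 on the log2 scale (SE 0.25, edgeR adjusted p 0.00471), and had the smallest p of the 5. In females its lowest, median and highest levels were 12.3, 17.2 and 22.4 CPM under 12:12 lighting and 2.14, 6.99 and 13.7 CPM under jet lag. In males under 12:12 lighting they were 9.19, 16.5 and 19.2 CPM, and jet lag males 5 to 8 had 4.69, 5.50, 1.94 and 12.4 CPM. The 12 jet lag libraries were each below the 12:12 median of their sex, and the lighting groups overlapped in both sexes. Wee1 was likewise called whichever of the 26 libraries was left out, at adjusted p of 0.0119 or less.

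Per kilobase of exon, which allows genes to be compared, the mean level in 12:12 females was highest for Bhlhe40 at 15.2 CPM per kb ± 5.06 (SD, n = 8). Ciart followed at 8.05 ± 2.45, Usp2 at 6.40 ± 1.45, Wee1 at 5.18 ± 1.05 and Bhlhe41 at 0.866 ± 0.377 CPM per kb. Ciart and Usp2, and Usp2 and Wee1, were neighbours whose means differed by less than the SD of the higher one. In jet lag females the order had Ciart at 2.16 ± 3.00, Wee1 at 2.02 ± 1.12 and Usp2 at 1.95 ± 1.64 CPM per kb, 3 levels within their spread, between Bhlhe40 at 9.04 ± 3.62 and Bhlhe41 at 0.357 ± 0.229. Jet lag males had Bhlhe40 at 7.40 ± 3.53, Wee1 at 1.80 ± 1.31, Usp2 at 1.25 ± 0.771, Ciart at 0.944 ± 0.626 and Bhlhe41 at 0.698 ± 0.672 CPM per kb (n = 4), and the last 4 overlapped in their spread. Males under 12:12 lighting kept the female 12:12 order, at 17.6 ± 7.34, 6.01 ± 2.53, 5.31 ± 1.38, 4.57 ± 1.01 and 0.805 ± 0.437 CPM per kb from Bhlhe40 to Bhlhe41 (n = 6).

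Within each sex alone all 5 fold changes were again negative, but in edgeR none passed the adjusted threshold. In females the log2 fold changes were -0.80 for Bhlhe40 (SE 0.32), -1.31 for Bhlhe41 (SE 0.48), -1.91 for Ciart (SE 0.62), -1.74 for Usp2 (SE 0.42) and -1.38 for Wee1 (SE 0.31). No gene passed edgeR's adjusted threshold in females, 0% of those tested, while 772 had an unadjusted p under 0.05. All 5 members were among the 2.16% of genes that were lower at an unadjusted p under 0.05. DESeq2 called 55 genes in females, among them Usp2 (adjusted p 0.0109) and Wee1 (adjusted p 0.00924). Without jet lag female 8, edgeR called 13 genes in females, and Ciart, Usp2 and Wee1 were among them with adjusted p of 0.0455, 0.0419 and 0.0420.

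In males the log2 fold changes were -1.29 for Bhlhe40 (SE 0.43), -0.34 for Bhlhe41 (SE 0.61), -2.76 for Ciart (SE 0.87), -2.17 for Usp2 (SE 0.58) and -1.43 for Wee1 (SE 0.42). In edgeR 0.0118% of genes were called in males, none of them a member. At an unadjusted p under 0.05, 4 of the 5 members were lower, beside 3.13% of all genes, and the exception was Bhlhe41. DESeq2 called Usp2 in males with an adjusted p of 0.0132. Without jet lag male 8, edgeR called Wee1 in males at -1.92 (adjusted p 0.0398).

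The response to lighting was not shown to differ between the sexes for any of the 5. In the test of that difference (edgeR interaction), 0% of genes were called, 902 had an unadjusted p under 0.05, and DESeq2 called 0. The largest differences, female minus male, were -0.97 for Bhlhe41 (SE 0.77) and 0.85 for Ciart (SE 1.00), and the 5 adjusted p ran from 0.814 to 0.982. The level itself was also not called different between females and males for any of the 5, while 9.13% of genes were.

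**Figure D2:**
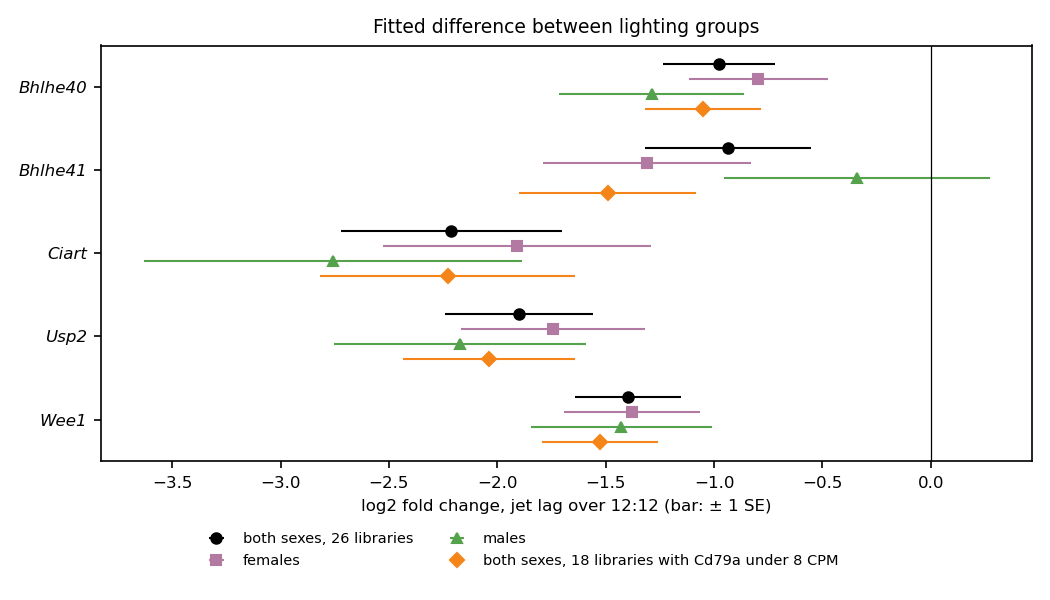
Points are log2 fold changes of jet lag over 12:12 lighting for each gene with bars of 1 SE, over both sexes (black circles), in females (squares), in males (triangles) and over both sexes in the 18 libraries with under 8 CPM of Cd79a (diamonds). Every point is below 0, from -0.34 for Bhlhe41 in males to -2.76 for Ciart in males.

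A few libraries stood apart across several of the 5 genes together. Jet lag female 3 held the lowest level of all 5 in its group, as did jet lag male 7 and 12:12 male 3 in theirs. In jet lag female 3, Bhlhe40 stood at 18.5%, Bhlhe41 at 5.67%, Ciart at 0.559%, Usp2 at 3.85% and Wee1 at 12.5% of the female 12:12 median. Jet lag female 8 held the highest jet lag level of 4 of the 5 among females, with Bhlhe40 at 94.7%, Ciart at 112%, Usp2 at 83.1% and Wee1 at 79.7% of that median, while its Bhlhe41 was at 31.9%. The highest Ciart level among jet lag females was thus 200.1 times the lowest.

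The 12:12 male number 3 was low where the other 12:12 males were not. Its Bhlhe40 was at 35.6%, Bhlhe41 at 28.7%, Ciart at 21.1%, Usp2 at 43.7% and Wee1 at 55.8% of the male 12:12 median. In the same library Arntl, the gene of BMAL1, was at 25.3 CPM against a male 12:12 median of 1.45 CPM. Dbp, an E-box target itself, was at 3.66 CPM against 65.4 CPM, and Cd79a was above 8 CPM. Not every E-box target was low there. Per1 was at 46.1 CPM against a median of 46.5 CPM, and Per2 at 39.9 CPM against 46.5 CPM. Nr1d1 was lower, at 9.75 CPM against 36.2 CPM, and Cry1 higher, at 34.04 CPM against 12.1 CPM. The part of these clock genes and of Cd79a in the low levels of this library was not tested. Without this library Bhlhe40 passed the threshold over both sexes at -1.03 (edgeR adjusted p 0.0288), as it also did without 12:12 female 6 (0.0359) or jet lag female 8 (0.0398), and Bhlhe41 did not (-1.03, adjusted p 0.242). Ciart at -2.27 (0.0206), Usp2 at -1.95 (0.00260) and Wee1 at -1.44 (0.00167) stayed past it. Over all 26 such fits Bhlhe40 passed in 3 and Bhlhe41 in 0. High Arntl with low Dbp was not particular to 12:12 male 3. The levels were 34.5 and 2.60 CPM in jet lag female 3, and 15.7 and 10.2 CPM in jet lag male 7. Jet lag male 6, which was not lowest for the members, had 23.5 and 1.56 CPM. The medians were 8.56 and 54.3 CPM in jet lag females, and 16.7 and 20.1 CPM in jet lag males.

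**Figure D3:**
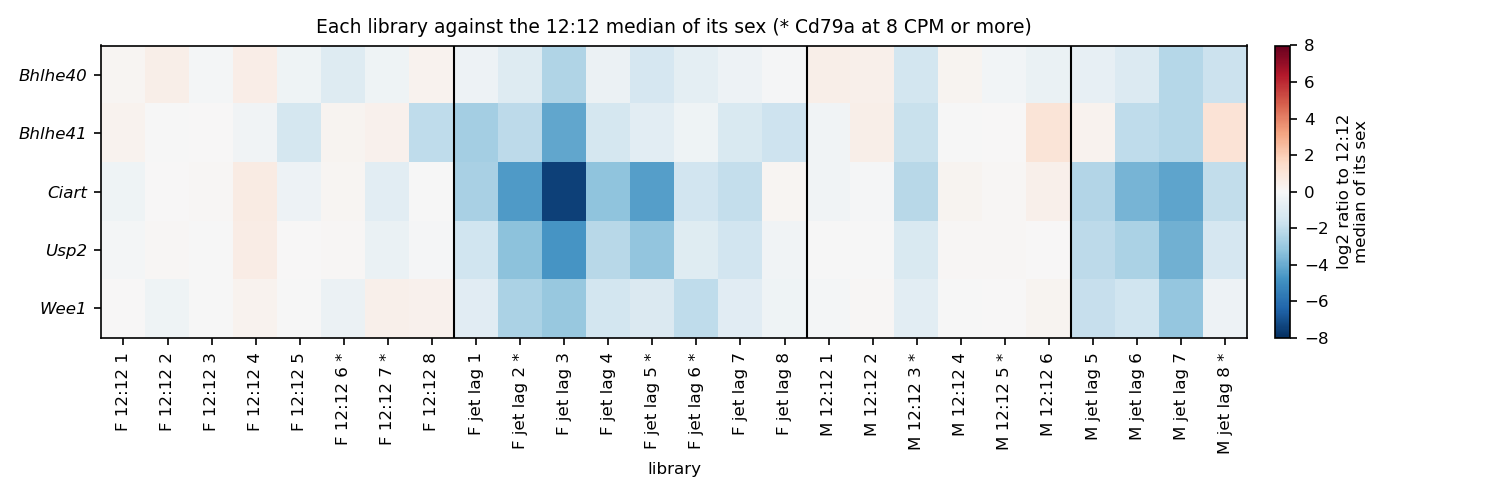
Each column is 1 library and each row 1 gene, coloured by the log2 ratio of its CPM to the 12:12 median of its sex (blue lower, red higher), with asterisks on the 8 libraries with at least 8 CPM of Cd79a. Blue columns run through most genes in jet lag libraries and in 12:12 male 3, while Bhlhe41 departs from the other rows in jet lag male 8, where it was at 211% of the male 12:12 median.

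The levels of the 5 genes were next compared between libraries of the same lighting. Pearson's r was taken on log2(CPM + 0.5) with the mean of each sex removed, for 10 pairs within the 14 libraries under 12:12 lighting and 10 within the 12 under jet lag, and the p-values of the 20 relations were adjusted together. All 10 pairs had a positive r under each lighting. Under jet lag 5 pairs passed an adjusted p of 0.05, and under 12:12 lighting 1 did. The median r was 0.67 under jet lag and 0.52 under 12:12 lighting, and the difference was not tested. With the 2 libraries farthest from the median of the first gene left out of each pair, the median r was 0.38 and 0.19. Without the 8 libraries with at least 8 CPM of Cd79a it was 0.85 under jet lag with 10 of 10 pairs positive, and 0.15 under 12:12 lighting with 7 of 10 positive.

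Ciart and Usp2 varied together most closely. Under jet lag r was 0.97 (permutation p 2e-05, adjusted 0.0004) and Spearman's rho 0.97 (permutation p 2e-05, adjusted 0.0004, n = 12 libraries). Under 12:12 lighting r was 0.94 (permutation p 0.00043, adjusted 0.0043) and rho 0.85 (permutation p 0.0006, adjusted 0.006, n = 14 libraries). Leaving out the 2 libraries farthest from the Ciart median gave an r of 0.95 under jet lag and 0.76 under 12:12 lighting. Among all genes tested, Usp2 ranked 1 by its r with Ciart and Ciart ranked 1 by its r with Usp2, under both lightings. In the windows described above Ciart has 3 copies of the E-box letters and Usp2 has 0, but Usp2's window lies inside the gene. The window before Usp2's first annotated base was not searched, and the part of E-boxes in this relation was not tested.

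Wee1 and Bhlhe40 followed Ciart and Usp2 under jet lag. There Usp2 and Wee1 had an r of 0.78 (permutation p 0.00435, adjusted 0.0217) and a rho of 0.71 (permutation p 0.0164, adjusted 0.0946), and Ciart and Wee1 an r of 0.71 (permutation p 0.00846, adjusted 0.0291) and a rho of 0.63 (permutation p 0.0378, adjusted 0.0946). Bhlhe40 had an r of 0.78 with Usp2 (permutation p 0.00404, adjusted 0.0217; rho 0.64, permutation p 0.0340, adjusted 0.0946) and of 0.74 with Ciart (permutation p 0.00872, adjusted 0.0291; rho 0.64, permutation p 0.0322, adjusted 0.0946). By rho, Ciart and Usp2 were the only pair past the threshold under either lighting. Without the 2 libraries farthest from the median of the first gene, which were jet lag female 3 with male 7 or with female 8, r for these 4 pairs dropped to between 0.48 and 0.61. The size of these relations therefore rests in part on those libraries.

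The paralogs Bhlhe40 and Bhlhe41 had the weakest relation of the 10 pairs under each lighting, with an r of 0.40 under jet lag (permutation p 0.221, adjusted 0.245) and 0.19 under 12:12 lighting (permutation p 0.549, adjusted 0.549). Without the 2 farthest libraries r was -0.32 and -0.13. Leaving out the 8 libraries with at least 8 CPM of Cd79a gave 0.79 under jet lag (exact permutation p 0.0208, adjusted 0.0595, n = 8 libraries) and -0.11 under 12:12 lighting (exact permutation p 0.762, adjusted 0.847, n = 10 libraries). In those libraries Ciart and Usp2 had an r of 0.96 under jet lag (exact permutation p 0.00694, adjusted 0.0444) and of 0.74 under 12:12 lighting (exact permutation p 0.0366, adjusted 0.0916).

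**Figure D4:**
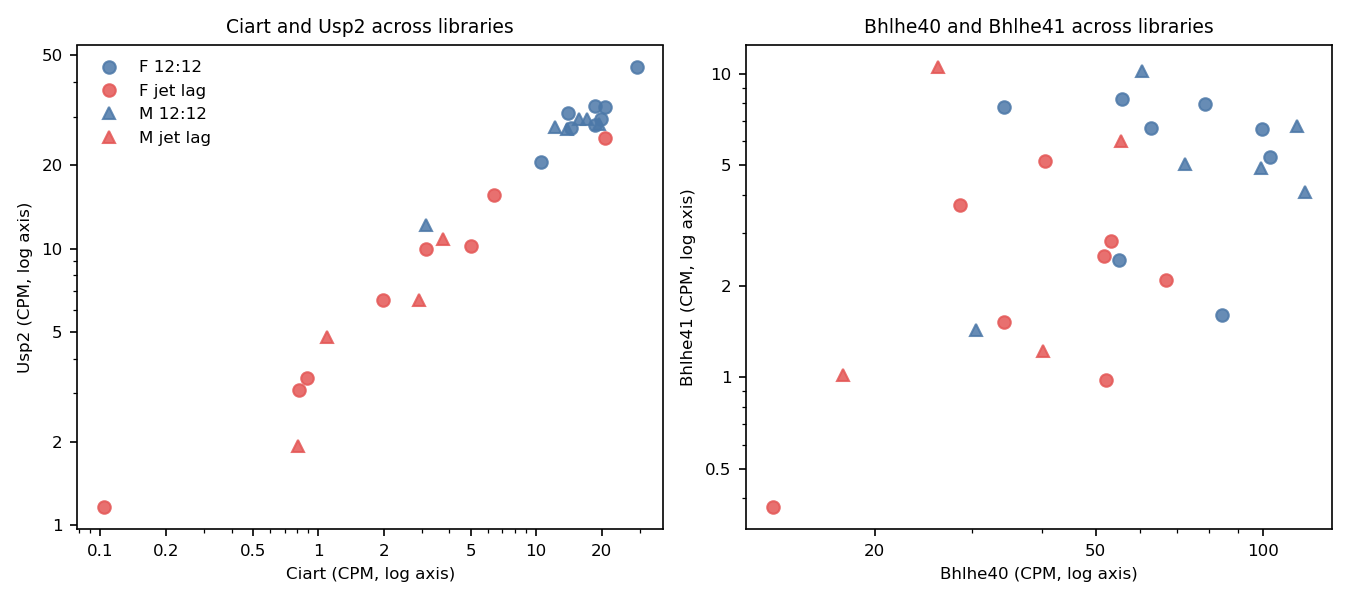
Each point is 1 library with the CPM of 1 gene on each log axis, Ciart and Usp2 on the left and Bhlhe40 and Bhlhe41 on the right, in females (circles) and males (triangles) under 12:12 (blue) and jet lag (red) lighting. Ciart and Usp2 form a narrow band from jet lag female 3 (0.104 and 1.16 CPM) upwards, while Bhlhe41 has low and high levels at the same Bhlhe40 level.

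The genes whose pattern was most like each member were found by Pearson's r over the 26 libraries with the 4 group means removed, among 12700 other genes with a mean of at least 1 CPM. They are given as a description, since all genes share the same libraries. Nearest to Ciart after Usp2 (0.95) were LOC102632388 (0.91) and Coq10b (0.87), and nearest to Usp2 after Ciart were LOC102632388 (0.94) and Tef (0.88), a clock output gene. Wee1 was nearest to Nhlrc2 (0.86), Per3 (0.82) and Klf13 (0.82). Bhlhe40 was nearest to 0610040F04Rik (0.98), which overlaps it on the other strand, then Coq10b (0.82) and Nr1d2 (0.81), which encodes REV-ERB beta. Bhlhe41 was nearest to Eif4b (0.79), a translation factor gene, Nedd1 (0.78) and Syne3 (0.76), none of them on the clock list. Among the genes ranked by likeness to Usp2, Wee1 came at place 22, Bhlhe40 at place 40 and Bhlhe41 at place 189. Bhlhe41 came at place 181 in the ranking for Ciart and at place 2417 in that for Bhlhe40.

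Some livers held far more B-lineage RNA than others, so the genes were also compared by it. Cd79a encodes a chain of the B cell receptor complex. In 8 libraries (2 of 8 12:12 females, 3 of 8 jet lag females, 2 of 6 12:12 males and 1 of 4 jet lag males) it stood between 14.5 and 144 CPM, and in the other 18 at no more than 2.95 CPM. The classes are set by these libraries and are not groups of the study. Between them, with sex and lighting in the model, 42.7% of all genes were called, 19.6% lower and 23.1% higher. The 8 libraries had higher levels of all 10 tested genes of 12 on a B-lineage list, whose summed level was 51.8 to 483 CPM against 9.34 to 21.3 CPM in the rest. That list and its sum include Cd79a, whose own difference was fixed by the rule that set the classes. All 12 proliferation genes (84.1 to 966 CPM against 29.2 to 48.4), 8 of 8 macrophage and Kupffer cell genes (411 to 1870 CPM against 224 to 478) and all 7 tested of 8 neutrophil genes (6.58 to 412 CPM against 1.13 to 6.89) were also higher. Of 8 T and NK cell genes 0 were called higher and 1 lower, with 7 fold changes negative. The summed level of 8 hepatocyte genes ran from 162207 to 247780 CPM in these 8 libraries and from 134688 to 173390 CPM in the rest. By gene, 1 of these 8 was called higher and 2 lower, with 4 fold changes positive, 4 negative and a median of -0.07. No gene of these lists was at 0 in all libraries.

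Bhlhe40 was the only member called between the classes, 1 of 5, with a log2 fold change of -0.81 where Cd79a was high (SE 0.23, edgeR adjusted p 0.00614). Under 12:12 lighting its median was 44.9 CPM in the 4 libraries with high Cd79a, ranging from 30.5 to 72.4, and 91.6 CPM in the other 10, ranging from 55.1 to 119. Under jet lag the medians were 31.3 CPM, ranging from 26 to 40.4, and 52.0 CPM, ranging from 13.1 to 67.0. The classes overlapped under both lightings. Whichever of the 26 libraries was left out, the call held, at adjusted p of 0.0223 or less, but a share of 19.6% called lower is the background for it. The part of the other cell types in this difference was not tested.

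The other members were not called between the classes. Between them Bhlhe41 differed by 0.53 on the log2 scale (SE 0.40, edgeR adjusted p 0.297), Ciart by -0.64 (SE 0.51, 0.328), Usp2 by -0.31 (SE 0.35, 0.498) and Wee1 by -0.23 (SE 0.26, 0.490). Bhlhe41's medians were 6.43 and 5.95 CPM under 12:12 lighting and 4.44 and 1.66 CPM under jet lag, in high and other libraries in turn. For Wee1 they were 14.6 and 17.2 CPM, and 5.99 and 5.88 CPM. Jet lag male 8, with the highest Cd79a level of all at 144 CPM, had the highest level of Bhlhe41, Ciart, Usp2 and Wee1 among the 4 jet lag males.

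In the 18 libraries with little Cd79a the lighting fold change over both sexes was as large or larger for every member, a change between fits that was not itself tested. In those libraries Bhlhe40 was at -1.05 (SE 0.27, edgeR adjusted p 0.0445), Bhlhe41 at -1.49 (SE 0.41, 0.0633), Ciart at -2.23 (SE 0.59, 0.0570), Usp2 at -2.04 (SE 0.40, 0.0115) and Wee1 at -1.53 (SE 0.27, 0.00363). Bhlhe40, Usp2 and Wee1 were thus called, 3 of 5 beside 0.931% of all genes lower, and Ciart was not. With all libraries kept and the Cd79a class as a term in the model, Bhlhe40 (adjusted p 0.0296) and Ciart (0.0232) both passed. In males of these libraries Wee1 was called at -2.09 (SE 0.42, adjusted p 0.0173), 1 of 5 members beside 0.475% of all genes lower, and in females 0 of 5 members were called beside 0.0243%. In females of these libraries the fold changes of Ciart (-1.65), Usp2 (-1.65) and Wee1 (-1.20) were smaller than with all females, and those of Bhlhe40 (-0.82) and Bhlhe41 (-1.60) larger.

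Without the libraries high in Cd79a fewer libraries remained to overlap, so the number of genes with separate lighting groups could only stay or rise. All jet lag males lay below all 12:12 males for Bhlhe40, Ciart, Usp2 and Wee1, 4 of 5 members beside 3.99% of all genes, with 3 and 4 libraries. The lowest 12:12 male then had 12.3 CPM of Ciart and the highest jet lag male 2.89 CPM. For females the groups, 5 and 6 libraries, were apart for Usp2 (25.1 CPM at most under jet lag, 27.3 CPM at least under 12:12) and Wee1 (13.7 and 13.8 CPM), 2 of 5 members beside 0.326% of all genes. With all 8 and 8 females it was 0 of 5 beside 0.0355%, and with all 4 and 6 males 1 of 5 beside 0.622%.

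Beside these output genes, a list of 16 other clock genes showed 1 gene called higher and 2 called lower over both sexes, with 11 fold changes negative and a median of -0.46. The 2 lower were Per2, a core repressor, at -1.38 (SE 0.28, edgeR adjusted p 0.0133) and Tef at -1.0 (SE 0.24, adjusted p 0.0490). The higher was Npas2, which encodes a partner of BMAL1, at 4.30 (SE 0.74, adjusted p 0.00371). Other E-box targets of the clock did not pass the threshold: Dbp was at -1.28 (SE 0.48, adjusted p 0.373), Per1 at -1.23 (SE 0.32, adjusted p 0.0755) and Nr1d1 at 0.54 (SE 0.30, adjusted p 0.745).

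Wee1 acts in the control of CDK1, where a list of 9 other genes was measured. For lighting over both sexes 0 of these 9 were called, 8 fold changes were positive and their median was 0.26. Within the sexes 0 were called either, and the signs differed. In females 9 of 9 were negative (median -0.55), and in males 9 of 9 were positive (median 1.46). The medians of the list's summed level did not show this difference. They were 8.52 CPM under 12:12 and 10.05 CPM under jet lag in females, and 7.93 and 9.13 CPM in males. The highest sums were 150.7 and 92.4 CPM in females, and 51.9 and 199.8 CPM in males. Libraries with under 8 CPM of Cd79a had sums of at most 10.25 CPM. The part of the libraries high in Cd79a in these signs was not tested. Cdk1 itself was at 0.29 (SE 0.74, edgeR adjusted p 0.999), and Pkmyt1, which encodes the related inhibitory kinase, at 0.09 (SE 0.49, adjusted p 0.999). Between the Cd79a classes all 9 were called higher with a median of 3.51, while Wee1 had -0.23. Cdk1 ran from 2.65 to 46.0 CPM where Cd79a was high and from 0.778 to 2.47 CPM in the rest.

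Each of the 5 genes overlaps another annotated gene on the opposite strand. Not given in the sources used here is whether counting used the strand. The libraries were made with a stranded kit, per the labels. The antisense gene 0610040F04Rik, which overlaps the start of Bhlhe40, had 5.33 to 8.89% of the Bhlhe40 count in each library, and under jet lag it was at -1.06 (SE 0.27, edgeR adjusted p 0.0605), close to that of Bhlhe40. C920021L13Rik, which spans Ciart, had 38 to 129 counts and a lighting difference of -0.08 (SE 0.19, edgeR adjusted p 0.999). In the library with 5 counts of Ciart it had 860% of that count. 1600010M07Rik, which spans Wee1, had 1 to 36 counts. Reads shared between these partners were not tested.

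The authors' deposited table gives 12:12 over jet lag, so its signs are opposite. In the authors' deposited table the log2 fold changes were 1.00 for Bhlhe40 (adjusted p 0.00874), 0.90 for Bhlhe41 (0.340), 2.45 for Ciart (1.79e-06), 1.84 for Usp2 (4.63e-06) and 1.39 for Wee1 (5.33e-06). The authors' deposited table thus has 4 of the 5 members and 222 of 17669 genes under an adjusted p of 0.05.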

How the data were processed

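mRNA of whole liver was sequenced from 26 mice with stranded DNBSEQ libraries, per the labels. STAR, DESeq2 and mm10 are named in the submitters' processing notes, without versions. Not given in the sources used here: counting tool, annotation and strand setting. The authors deposited an estimated count per gene and library, in which 0.015 stood for 0 (45.8% of cells), and 1.44% of cells were not whole and were rounded. Lines sharing a name were summed. Library totals were 45364557 to 50242019, so that 3 counts, the limit a count of 0 allows, were at most 0.0661 CPM (counting error only). No library copied another of the same sex and lighting (chi-square per degree of freedom at least 29.0). Libraries of different groups were not compared in this way. Albumin (Alb) took 10.0 to 22.1% of counts. A DESeq2 table deposited by the authors holds a mean signal, log2 fold change, a score (the Wald statistic), p-value and adjusted p-value, of which the log2 fold change and adjusted p-value are quoted. Their normalized table was not used.

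edgeR 4.0.16 (R 4.3.3) was run with filterByExpr by group (count minimum 10), TMM, robust glmQLFit and glmQLFTest, and p-values were adjusted over 16892 genes by Benjamini and Hochberg (threshold 0.05). Lighting over both sexes, sex and Cd79a class came from additive models, and the rest from 4 group means over all libraries. The SE is the log2 fold change divided by the square root of F. Per-kilobase levels used the union of GENCODE exons in GRCm38. Permutation tests were two-sided, with 100000 rearrangements within sex, or all of them where named exact. DESeq2 1.42.0 was an alternative. On simulated counts (16669 genes) the test over both sexes recovered 73% of 2-fold and 92% of 4-fold changes, in females 58% and 90%, and in males 48% and 77%. Apart from those changes, the simulated libraries had no difference by sex or Cd79a class and no variation shared between genes. The recovery in the real libraries may therefore differ.

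Named genes were the 5 members, any gene of the clock list, the 3 nearest genes to each member, and genes of the CDK1 and cell lists whose values stand beside a result. The members and lists were chosen with earlier results of these data known. Lists of stellate cell and fibroblast, endothelial cell and cholangiocyte genes had 0 genes called for lighting over both sexes and 3, 3 and 0 called higher between the Cd79a classes, and all 108 list entries were found, 1 by a synonym. The B-lineage, T and NK cell, macrophage, neutrophil, proliferation and hepatocyte lists also had 0 called for lighting.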

Additional observations from a re-analysis of the deposited data

Results flagged for a closer look

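In males under 12:12 lighting, number 3 was far below the other 5 for 3 of the 5 genes. It had 3.11 CPM of Ciart, 12.2 CPM of Usp2 and 9.19 CPM of Wee1. On log2(CPM + 0.5), its gap to the nearest male took 0.737, 0.898 and 0.671 of the group's whole range, above Dixon's limit of 0.625 for 6 samples. Of 20 groups checked (5 genes in 4 groups), 3 met this rule, all in the same library. Chance flags about 1 in 20 independent groups, but the 5 genes were measured in the same libraries. Ciart and Usp2 also had an r of 0.94 under 12:12 lighting. The 3 flags are therefore 1 library seen in 3 genes and cannot be set against that rate. The same library had 45.6 CPM of Cd79a, and the part of this in its low levels was not tested.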

How the results depend on the processing

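The lighting fold change of each of the 5 genes over both sexes was negative under every alternative run. Usp2 and Wee1 passed the threshold in 6 of 6 alternatives other than leaving out 1 library, Ciart and Bhlhe40 in 3 and Bhlhe41 in 0. Genes called over both sexes were 132 in the fit as reported, 267 by DESeq2, 380 without the libraries high in Cd79a and 225 with the Cd79a class as a term, and 70 to 244 without 1 library (70 without jet lag female 3, 244 without jet lag male 8), with 2 to 4 members. In females they were 0 as reported, 55 by DESeq2 (2 members), 13 without high Cd79a, 8 with the class as a term, 14 from female libraries alone, and 0 to 13 without 1 library, with 0 to 3 members. In males they were 2 as reported, 87 by DESeq2 (1 member), 0 with DESeq2 size factors, 219 without high Cd79a (1 member), 39 with the class as a term, 0 from male libraries alone, and 0 to 106 without 1 library (106 without jet lag male 8), with 0 to 1 members. Female against male, 3189 genes were called without high Cd79a, against 1542, and 1134 to 2069 without 1 library. Between the Cd79a classes 5827 to 7678 were called without 1 library, and a limit of 16 CPM for the class gave 7521. A limit of 4 CPM left the classes unchanged, so its 7205 repeats the fit as reported. The cause of these shifts was not tested. Depth limits most the lowest values, 5 counts of Ciart and 18 of Bhlhe41 in jet lag female 3.

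Same-numbered mice of the 2 lighting groups did not pair: 6 of 10 such pairs had a correlation of deviations over 0.1 (-0.449 to 0.644) and 1 of them was best matched by its own number. Only 8 female and 2 male pairs shared a number. With the replicate number as a block, the unpaired males therefore carried no information on lighting. In that fit, 111 genes were called over both sexes, with Ciart no longer among them (-2.96, edgeR adjusted p 0.0830). In females 19 were called, with 1 member (Wee1, edgeR adjusted p 0.0239), and in males, from 2 pairs, 4 with 0 members.

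Under 12:12 lighting 0 pairs of members passed without high Cd79a and 2 with TMM-scaled CPM, against 1. There r changed sign without high Cd79a for Bhlhe40 and Bhlhe41 (-0.11), Bhlhe40 and Wee1 (-0.211) and Bhlhe41 and Wee1 (-0.225). The difference in response between sexes changed sign for Ciart without jet lag female 8 (-0.0889 to 1.19 over the 26 fits without 1 library), for Wee1 in 7 of those fits (-0.213 to 0.546), and the female to male difference of Wee1 in 3 (-0.0381 to 0.241), none of them called.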
